A study of Arabidopsis thaliana with 8 samples.

Results

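Serine carboxypeptidase-like (SCPL) and beta-glucosidase (BGLU) genes were followed in rosette leaves of Arabidopsis thaliana on Affymetrix ATH1 arrays. Members were taken by name: every probe set (the group of short oligonucleotides that reads a transcript) that maps to exactly 1 gene with a symbol of SCPL or BGLU and a number. The TAIR10.1 annotation has 49 SCPL and 40 BGLU symbols. Genes with no probe set of their own in the platform annotation, such as SCPL9, scpl10, SCPL11 and SCPL13, could not be members. Of 49 probe sets taken in this way, 26 exceeded the 40th percentile of their own array on 2 or more of the 8 hybridizations. They were 14 of 29 for SCPL and 12 of 20 for BGLU. In the whole series 14947 probe sets passed this filter. Neither step compared the lines, but the filter could keep a gene through the arrays of lines in which it was high. Earlier results of these data were known when the members were chosen. Each probe set was read by an array signal on a linear scale (MAS5 signal), which can be compared between lines for 1 gene but not between genes.

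There were 4 lines with 2 arrays each: flu plants (SAIL_136_E05) that overexpress the thylakoid ascorbate peroxidase tAPX (flu tAPX), flu plants without the transgene, plants with the tAPX transgene and a functional FLU gene (tAPX, line 14/2), and the wild type of the Columbia accession (WT). All plants grew on soil in continuous light for 3 weeks, then spent 8 h in the dark and 2 h back in light before harvest. Every line had this same treatment, and none of the arrays holds leaves taken before the light returned. The transgene comes from a single line, and the promoter that drives it is not stated in the labels. Each array received RNA pooled over 3 of 6 experiments with at least 10 plants per line, and p-values therefore measure the spread between pools. The free-text descriptions of several arrays name another accession, line or harvest time, and the titles, source names and genotype entries were followed.

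FLU holds back chlorophyll precursor synthesis in the dark, and flu plants release singlet oxygen in the chloroplast when light returns. Serine carboxypeptidase-like proteins share the fold of peptidases that trim proteins in the vacuole and along the secretory pathway, and some relatives have become acyltransferases that use glucose esters as donors, such as the sinapoyltransferases of leaf and seed. Beta-glucosidases of the plant family cut glucose from stored glucosides and set free hormones, lignin precursors or defence compounds.

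The labels of the arrays were checked on TAPX, the gene of the thylakoid peroxidase, whose signals were 22703 and 23222 in flu tAPX, 1656 and 1729 in flu, 22959.7 and 22043 in tAPX and 2558 and 3115 in WT. It was high on all 4 arrays of the transgenic lines. FLU itself is not analysed here, so the flu label was not checked on the transcript of that gene. Of 29 marker genes listed for leaf cell types, 5 had a probe set mapped to them alone in the annotation used and were measured. No defining marker of epidermis (0 of 4) or xylem (0 of 5) had one. This gap says nothing of the level of the other markers in these leaves. The mesophyll gene RCA, which encodes Rubisco activase, read 24891 to 31222 in flu tAPX, 27196 to 29616 in flu, 28989 to 30467 in tAPX and 29217 to 31736 in WT. In pooled leaf RNA, fewer cells of a type and less RNA per cell cannot be told apart.

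Most SCPL members had lower signals in flu plants. In the pooled response to flu, the mean of flu tAPX minus tAPX and of flu minus WT, 11 of 14 SCPL members fell and none rose by limma (adjusted p under 0.05 by Benjamini-Hochberg over all 14947 probe sets), or 78.6%, where 27.2% of all tested probe sets fell. The falls were moderate: the family median was -0.65 on the log2 scale, against -0.20 for all tested probe sets, and the steepest was -1.14. For 10 of the 14, all 4 arrays of flu tAPX and flu lay below all 4 arrays of tAPX and WT, a separation that 26% of all tested probe sets showed. Leaving out flu replicate 1, tAPX replicate 1, tAPX replicate 2, WT replicate 1 or WT replicate 2 brought the 11 down to 8, 9, 9, 9 and 7.

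**Figure D1:**
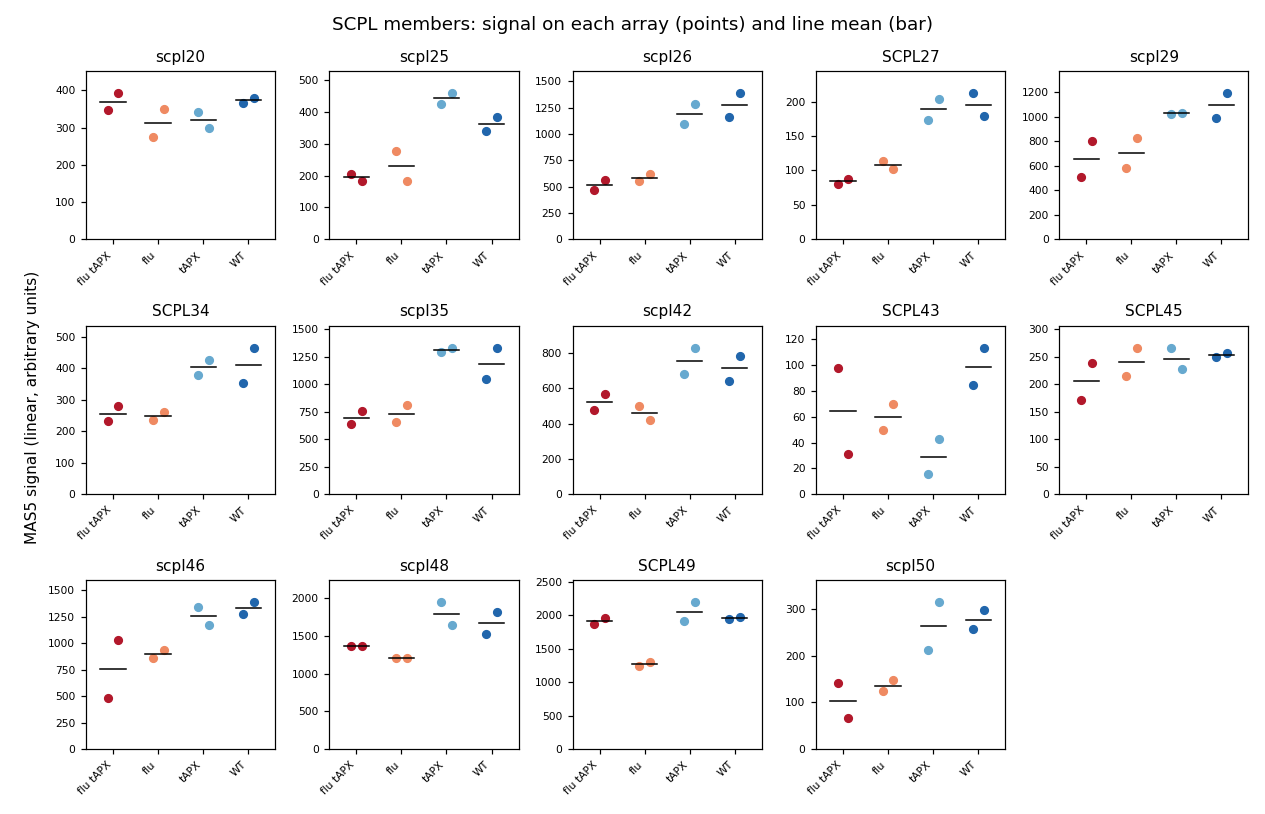
Signal of the 14 SCPL members on each array (linear MAS5 signal, 1 panel per gene, each with its own axis from 0). Points are the 2 arrays of a line and bars the line mean; for scpl26 the 4 arrays of flu tAPX and flu read 467 to 620.1 and the 4 of tAPX and WT 1097 to 1391.

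The gene scpl26 fell in both backgrounds. Its signals were 467 and 566 in flu tAPX, 551 and 620.1 in flu, 1097 and 1279.8 in tAPX and 1163 and 1391 in WT. All 4 arrays with the flu mutation were under every array without it. The log2 difference was -1.18 ± 0.19 (SE) in flu tAPX against tAPX (adjusted p = 0.00105) and -1.10 ± 0.19 in flu against WT (adjusted p = 0.00239), and it stayed past the threshold in all 18 other settings for both comparisons. On the linear scale the mean signal was 2.3 times lower in flu tAPX than in tAPX and 2.18 times lower in flu than in WT.

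A group of 5 further members, scpl50, SCPL27, scpl25, scpl35 and SCPL34, fell in the pooled response under every other setting in which they were tested. For scpl50 the signals were 141 and 66.7 in flu tAPX, 125 and 147 in flu, 212 and 315 in tAPX and 258 and 298 in WT. Its lowest value, that of flu tAPX replicate 2, lay under the 40th percentile of its array. The pooled difference was -1.11 ± 0.24, adjusted p = 0.00408, made up of -1.27 ± 0.34, adjusted p = 0.0164 in flu tAPX against tAPX and -0.95 ± 0.34, adjusted p = 0.0684 in flu against WT. The call in flu tAPX was lost without flu tAPX replicate 2 or tAPX replicate 2 (-0.81 and -1.0).

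SCPL27 read 80.9 and 87.5 in flu tAPX, 114 and 102 in flu, 174 and 204 in tAPX and 213 and 179 in WT. Both flu tAPX values lay under the filter's percentile, which was 78.4 to 95.6 over the 8 arrays. SCPL27 had a pooled difference of -0.90 ± 0.20, adjusted p = 0.00420. It fell in flu tAPX against tAPX (-1.03 ± 0.28, adjusted p = 0.0168), a call lost without tAPX replicate 1 or tAPX replicate 2 (-1.13 and -0.92), and the value in flu against WT was -0.77 ± 0.28, adjusted p = 0.0695.

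The signals of scpl25 were 204 and 184 in flu tAPX, 277 and 183 in flu, 426 and 460.0 in tAPX and 340.0 and 385 in WT. Every array with the flu mutation lay under every array without it, and the flu arrays differed from each other by more than the flu tAPX arrays did. Its pooled difference was -0.89 ± 0.17, adjusted p = 0.00182. It fell in flu tAPX against tAPX (-1.13 ± 0.24, adjusted p = 0.00466) in every other setting run, and the value in flu against WT was -0.65 ± 0.24, adjusted p = 0.0732.

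The signals of scpl35 were 639 and 753 in flu tAPX, 652 and 811 in flu, 1293 and 1332 in tAPX and 1043 and 1328 in WT. This gene fell in the pooled response (-0.79 ± 0.14, adjusted p = 0.00113) and in both backgrounds, with -0.91 ± 0.20, adjusted p = 0.00552 in flu tAPX against tAPX and -0.68 ± 0.20, adjusted p = 0.0301 in flu against WT. The first call was lost without tAPX replicate 2 (-0.88). The call in flu against WT was lost without flu replicate 1, tAPX replicate 1, tAPX replicate 2 or WT replicate 2 or with scaling on poly-A spike-ins or no variance trend (-0.68 to -0.51).

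SCPL34 had 233 and 279.8 in flu tAPX, 235 and 262 in flu, 379 and 428 in tAPX and 353 and 467 in WT. Both flu lines sat near the same level, under both lines with a functional FLU gene, and the pooled difference was -0.65 ± 0.15, adjusted p = 0.00692. It fell in flu against WT (-0.68 ± 0.22, adjusted p = 0.0489), while the value in flu tAPX against tAPX was -0.63 ± 0.22, adjusted p = 0.0509. The call in flu against WT was fragile and was lost without flu replicate 1, flu replicate 2, tAPX replicate 1, tAPX replicate 2, WT replicate 1 or WT replicate 2 or with a pseudocount of 1, no filter, quantile normalization, median centring, scaling on poly-A spike-ins, no variance trend or the 2 compared lines alone (-0.87 to -0.48).

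The remaining members that fell in the pooled response lost the call when single arrays were left out. The gene scpl29 read 510.5 and 804 in flu tAPX, 578 and 826 in flu, 1022 and 1029 in tAPX and 990.2 and 1194 in WT. Its pooled difference was -0.65 ± 0.18, adjusted p = 0.0131, not past the threshold without flu replicate 1 or WT replicate 2 (-0.53 and -0.59). The signals of scpl42 were 478 and 571 in flu tAPX, 503 and 420.4 in flu, 683 and 832 in tAPX and 642 and 787 in WT, with a pooled difference of -0.56 ± 0.14, adjusted p = 0.0103, lost without tAPX replicate 2 (-0.49). In both genes every array with the flu mutation lay under every array without it.

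For scpl46 the signals were 479 and 1033 in flu tAPX, 858 and 936 in flu, 1341 and 1168 in tAPX and 1280.2 and 1386 in WT. The flu tAPX arrays were far apart, with replicate 1 the lowest of all 8. The pooled difference of scpl46 was -0.69 ± 0.21, adjusted p = 0.0221, and it did not pass without flu replicate 1, tAPX replicate 1, WT replicate 1 or WT replicate 2 or with no variance trend (-0.72 to -0.64). The signals of scpl48 were 1363 and 1365 in flu tAPX, 1211 and 1210.0 in flu, 1943 and 1649 in tAPX and 1522 and 1812 in WT. The fall was small beside those above (-0.42 ± 0.12, adjusted p = 0.0164) and did not pass without tAPX replicate 1 or WT replicate 2 (-0.36). None of scpl29, scpl42, scpl46 and scpl48 passed in a single background.

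SCPL49 has the further name carboxypeptidase Y in the TAIR10.1 annotation, after the vacuolar peptidase of yeast. Its signals were 1869 and 1957 in flu tAPX, 1248 and 1303 in flu, 1913 and 2195 in tAPX and 1953 and 1974 in WT. The flu arrays stood apart from all others, and the flu tAPX arrays lay beside the WT and tAPX ones. It fell in flu against WT (-0.62 ± 0.15, adjusted p = 0.0173), while the value in flu tAPX against tAPX was -0.10 ± 0.15, adjusted p = 0.660. The test of the difference between these responses did not pass (interaction 0.52 ± 0.22, adjusted p = 0.719), nor did flu tAPX against flu (0.58 ± 0.15, adjusted p = 0.871). The fall in flu against WT was lost without flu replicate 1, flu replicate 2, WT replicate 1 or WT replicate 2 or with scaling on poly-A spike-ins (-0.65 to -0.58). Its pooled value of -0.36 ± 0.11, adjusted p = 0.0235 was lost without flu replicate 1, tAPX replicate 2, WT replicate 1 or WT replicate 2 (-0.36 to -0.31).

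The other 3 SCPL members did not pass in any comparison. The gene scpl20 read 346 and 393 in flu tAPX, 275 and 349 in flu, 343 and 298 in tAPX and 366 and 379.5 in WT, and SCPL45 read 171 and 239 in flu tAPX, 216 and 266 in flu, 265 and 228 in tAPX and 249 and 256 in WT. In both, the arrays with and without the flu mutation overlapped, with pooled differences of -0.03 ± 0.15 and -0.17 ± 0.17. SCPL43 was dim, at 97.9 and 31.1 in flu tAPX, 49.5 and 70.1 in flu, 15.5 and 42.6 in tAPX and 84.3 and 114 in WT. It passed the filter on 2 arrays, flu tAPX replicate 1 and WT replicate 2, and its pooled difference was 0.08 ± 0.41.

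Taken singly, the backgrounds gave fewer calls than the pooled response. In flu tAPX against tAPX 5 of 14 SCPL members fell (scpl25, scpl26, SCPL27, scpl35 and scpl50) and none rose, where 18.5% of all tested probe sets fell. In flu against WT 4 of 14 fell (scpl26, SCPL34, scpl35 and SCPL49), where 12.5% of all tested probe sets fell. The signs were nonetheless alike over most of the family: 12 of 14 differences were negative in flu tAPX against tAPX and 14 of 14 in flu against WT. The medians over all tested probe sets were themselves negative (-0.16 and -0.20), and 11 and 13 of the 14 lay below them. In flu against WT both flu arrays lay below both WT arrays for 13 of 14, against 42.7% of all tested probe sets. In flu tAPX against tAPX this was so for 10 of 14, against 41.1%. Both scpl26 and scpl35 fell in each background, 2 of 14, where 9.18% of all tested probe sets did. The count of 4 in flu against WT depends on the arrays kept: it was 1 without WT replicate 2, 2 without WT replicate 1, either flu array or either tAPX array, and 8 without either flu tAPX array. The count of 5 in flu tAPX against tAPX was 2 without tAPX replicate 2. When arrays were scaled on poly-A spike-ins, which were brighter in flu tAPX, 12 members fell in flu tAPX against tAPX, where 45.8% of all tested probe sets fell. With that scaling 1 member fell in flu against WT, where 4.46% of all did, and 11 fell in the pooled response, where 42% did.

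Of the markers measured for other leaf cell types, the phloem and the trichome gene fell with the flu mutation and the guard cell genes did not pass. SWEET11, a sugar exporter of phloem parenchyma and the 1 of 5 phloem markers measured, read 3887 to 4288 in flu tAPX, 3131 to 4208 in flu, 5065 to 5988 in tAPX and 5135 to 5285 in WT. TRY, a regulator of trichome spacing and the 1 of 3 trichome markers measured, read 105 to 172 in flu tAPX, 135 to 156 in flu, 293 to 334 in tAPX and 218 to 321 in WT. The 2 of 6 guard cell markers measured summed to 874 to 2091 in flu tAPX, 1205 to 1785 in flu, 1858 to 2030.4 in tAPX and 1140.4 to 1703 in WT. Of these, TRY (-0.97 ± 0.21, adjusted p = 0.00387) fell in the pooled response, as did SWEET11 (-0.47 ± 0.13, adjusted p = 0.0121), where 27.2% of all tested probe sets fell. The guard cell markers FMA (0.10 ± 0.17, adjusted p = 0.648) and AT1G22690 (-0.35 ± 0.35, adjusted p = 0.437) did not pass there. The mesophyll gene RCA did not pass either (-0.10 ± 0.11, adjusted p = 0.489). The call of SWEET11 was lost without tAPX replicate 2 (-0.41). The part of these cell types in the SCPL result was not tested.

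The BGLU members went both ways. In the pooled response to flu 4 of 12 rose (BGLU27, BGLU46, BGLU45 and BGLU31), where 17.1% of all tested probe sets rose. Only 1 of 12 fell (BGLU40), where 27.2% of all tested probe sets fell. The median over the family was 0.18 (-0.10 with scaling on poly-A spike-ins), against -0.20 for all tested probe sets (-0.47 with that scaling). Of these 5, 4 separated all 4 arrays of flu tAPX and flu from all 4 arrays of tAPX and WT. BGLU27, BGLU45 and BGLU46 lay above, where 16.7% of all tested probe sets did, and BGLU40 lay below, where 26% did. The 4 genes that rose read below the array median on every tAPX and WT array. BGLU27 and BGLU45 passed the filter only on the 4 arrays with the flu mutation, BGLU46 only on the 2 flu tAPX arrays, and BGLU31 on 4 arrays that include both flu tAPX arrays. Genes kept through the lines in which they are high had to differ, so that their count is a description and supports nothing.

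**Figure D2:**
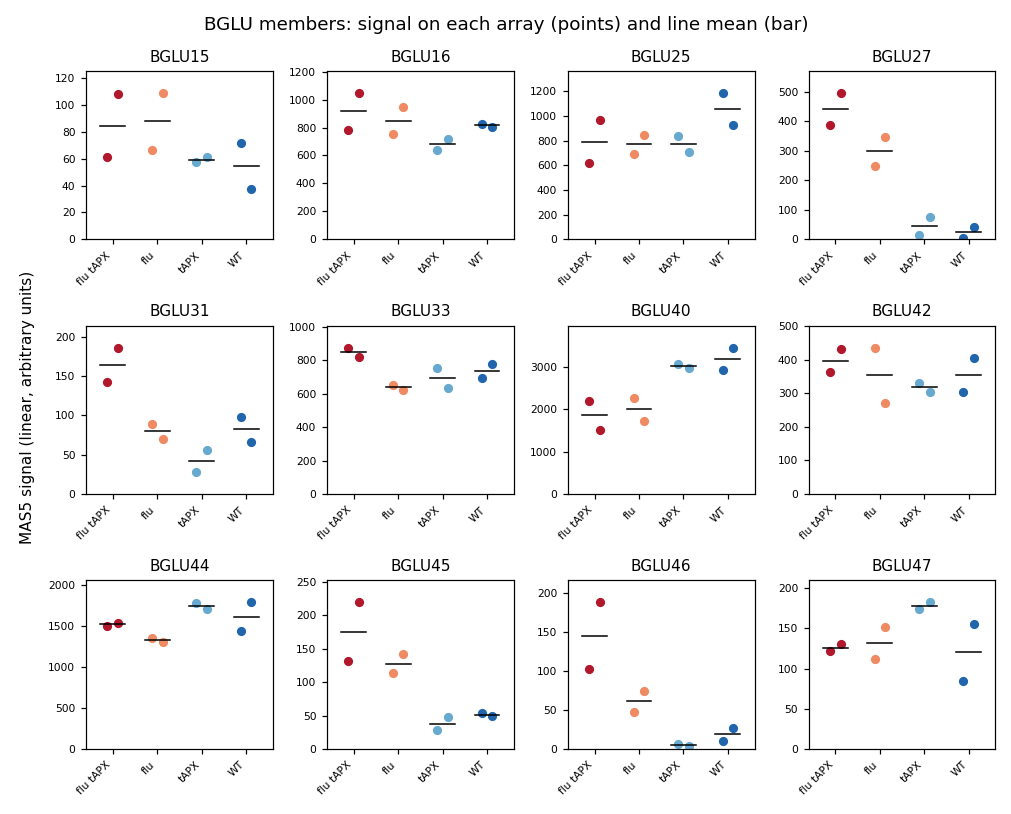
Signal of the 12 BGLU members on each array (linear MAS5 signal, 1 panel per gene, each with its own axis from 0). Points are the 2 arrays of a line and bars the line mean; BGLU27 read 248 to 497 on the 4 arrays of flu tAPX and flu and 5.57 to 75.4 on the 4 of tAPX and WT.

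BGLU45, BGLU46 and BGLU47 belong to the branch of the family known for lignin precursors, and BGLU45 and BGLU46 cut the glucosides of monolignols. BGLU45 had signals of 132 and 219 in flu tAPX, 114 and 142 in flu, 28.5 and 47.4 in tAPX and 53.9 and 49.0 in WT. It rose in flu tAPX against tAPX (1.81 ± 0.41, adjusted p = 0.00696), and in flu against WT the value was 1.08 ± 0.41, adjusted p = 0.0810. The rise in flu tAPX was lost without flu tAPX replicate 2 or tAPX replicate 1 (1.47 and 1.55), but the pooled rise (1.45 ± 0.29, adjusted p = 0.00254) held in every other setting run.

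BGLU46, the gene next to BGLU45 on chromosome 1, read 103 and 188 in flu tAPX, 47.5 and 74.3 in flu, 6.01 and 4.11 in tAPX and 10.4 and 27.5 in WT. Both WT and both tAPX arrays lay under all arrays with the flu mutation. It too rose in flu tAPX against tAPX (2.89 ± 0.63, adjusted p = 0.00610), a call lost without flu tAPX replicate 2 (2.50), and in the pooled response (2.02 ± 0.45, adjusted p = 0.00470). The value in flu against WT was 1.16 ± 0.63, adjusted p = 0.213. Since the tAPX signals were near the bottom of the scale, the sizes depend on the pseudocount: with 64 and 1 the difference in flu tAPX against tAPX was 1.57 and 4.55, and the pooled one 1.08 and 3.15. The interaction did not pass for BGLU46 (1.73 ± 0.90, adjusted p = 0.733) or BGLU45 (0.73 ± 0.58, adjusted p = 0.810). BGLU47 had 122 and 130.4 in flu tAPX, 112 and 151 in flu, 174 and 182 in tAPX and 84.4 and 156 in WT. Its lines overlapped in flu against WT, and no comparison passed (pooled -0.15 ± 0.23, adjusted p = 0.638).

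BGLU33 is known as an enzyme that frees abscisic acid from its glucose ester in the vacuole. It read 877 and 821 in flu tAPX, 656 and 624 in flu, 756 and 637 in tAPX and 694 and 777 in WT. The flu tAPX arrays were the highest and the flu arrays among the lowest, yet neither response to flu passed: 0.28 ± 0.18, adjusted p = 0.244 in flu tAPX against tAPX and -0.20 ± 0.18, adjusted p = 0.454 in flu against WT. BGLU15, an enzyme of flavonol glycoside breakdown, was dim and variable at 60.9 and 108 in flu tAPX, 66.5 and 109 in flu, 57.4 and 61.1 in tAPX and 71.4 and 37.1 in WT. It passed the filter on 2 arrays, and its pooled difference was 0.48 ± 0.34, adjusted p = 0.275. BGLU42, which is known from roots in systemic resistance, read 362 and 431 in flu tAPX, 435 and 271 in flu, 332 and 302 in tAPX and 305 and 404 in WT, with a pooled difference of 0.14 ± 0.18, adjusted p = 0.564. The 2 flu arrays of BGLU42 were the highest and the lowest of all 8.

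BGLU27 had the largest pooled difference of the members (3.10 ± 0.40, adjusted p = 0.000166). Its signals were 387 and 497 in flu tAPX, 248 and 348 in flu, 16 and 75.4 in tAPX and 5.57 and 41.8 in WT. All 4 arrays with the flu mutation were above every array without it, and the WT and tAPX values were under the filter's percentile. The log2 difference was 3.07 ± 0.57 in flu tAPX against tAPX (adjusted p = 0.00235) and 3.13 ± 0.57 in flu against WT (adjusted p = 0.00319). Both calls held in all 18 other settings. The size depends on the pseudocount added to dim values: with pseudocounts of 64 and 1 it was 2.25 and 3.61 in flu tAPX against tAPX and 2.06 and 4.13 in flu against WT.

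BGLU16 lies next to BGLU27 on chromosome 3 and was bright on every array, at 784 and 1049 in flu tAPX, 753 and 946 in flu, 643 and 721 in tAPX and 827 and 805 in WT. It did not pass in any comparison (pooled 0.23 ± 0.14, adjusted p = 0.222), so these neighbours were not called together. BGLU27, BGLU45 and BGLU46 were each kept by the filter only through arrays with the flu mutation. The 2 pairs of neighbours therefore cannot be compared by their calls. Other neighbours of members did not pass the filter: scpl28 beside scpl26, BGLU43 beside BGLU44, BGLU32 beside BGLU31 and BGLU28 beside BGLU15. Neighbours were read from the gene order of the TAIR10.1 annotation.

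BGLU31 rose in the background with the transgene. Its signals were 142 and 186 in flu tAPX, 88.9 and 70.5 in flu, 28.5 and 56.0 in tAPX and 98.5 and 66.2 in WT. Both flu tAPX arrays lay above all others, while the flu and WT arrays overlapped. It rose in flu tAPX against tAPX (1.66 ± 0.41, adjusted p = 0.0119) and had -0.03 ± 0.41, adjusted p = 0.968 in flu against WT. The interaction was 1.69 ± 0.59, adjusted p = 0.719. The rise was lost without flu tAPX replicate 2 or tAPX replicate 1 or with scaling on poly-A spike-ins (1.13 to 1.49). Its pooled value was 0.82 ± 0.29, adjusted p = 0.0449 (0.54 with a pseudocount of 64), lost without flu tAPX replicate 1, flu tAPX replicate 2, flu replicate 1, flu replicate 2, tAPX replicate 1, WT replicate 1 or WT replicate 2 or with a pseudocount of 1, no filter, scaling on poly-A spike-ins or a replicate block (0.57 to 0.98).

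BGLU40 was the only BGLU member that fell. It had 2206 and 1507 in flu tAPX, 2276 and 1735 in flu, 3059.6 and 2963 in tAPX and 2917 and 3454 in WT. Every array of flu tAPX and flu lay under every array of tAPX and WT. The pooled difference was -0.69 ± 0.15, adjusted p = 0.00432, past the threshold in every other setting run. Within a background it passed in flu tAPX against tAPX (-0.72 ± 0.21, adjusted p = 0.0270) and in flu against WT (-0.67 ± 0.21, adjusted p = 0.0465). The first call was lost without flu tAPX replicate 2, tAPX replicate 1 or tAPX replicate 2 or with no variance trend or the 2 compared lines alone (-0.74 to -0.45). The second was lost without flu replicate 1, flu replicate 2, tAPX replicate 1, tAPX replicate 2, WT replicate 1 or WT replicate 2 or with no filter, median centring, scaling on poly-A spike-ins or no variance trend (-0.86 to -0.48).

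BGLU44 read 1504 and 1540.0 in flu tAPX, 1354 and 1305 in flu, 1785 and 1706 in tAPX and 1439 and 1787 in WT, and BGLU25 read 615 and 969.6 in flu tAPX, 692 and 846 in flu, 833 and 704 in tAPX and 1187 and 924 in WT. Both were bright on every array and passed in no comparison, with pooled differences of -0.23 ± 0.12 and -0.22 ± 0.17. Over the family, 4 of 12 members rose in flu tAPX against tAPX (BGLU27, BGLU31, BGLU45 and BGLU46), where 15% of all tested probe sets rose, and 1 rose in flu against WT (BGLU27), where 11.4% did. The 4 were 1 without flu tAPX replicate 2 and 2 without tAPX replicate 1. BGLU40 was the 1 of 12 that fell in each background, where 9.18% of all tested probe sets fell in both. Both flu tAPX arrays lay above both tAPX arrays for 7 of 12, where 27% of all tested probe sets did. Both flu arrays lay above both WT arrays for 3 of 12, where 22% did. These counts of higher members include genes that the filter kept through the arrays in which they are high. They are descriptions and support nothing. With the filter at the 60th percentile, 7 BGLU members were tested and 1 rose in flu tAPX against tAPX.

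**Figure D3:**
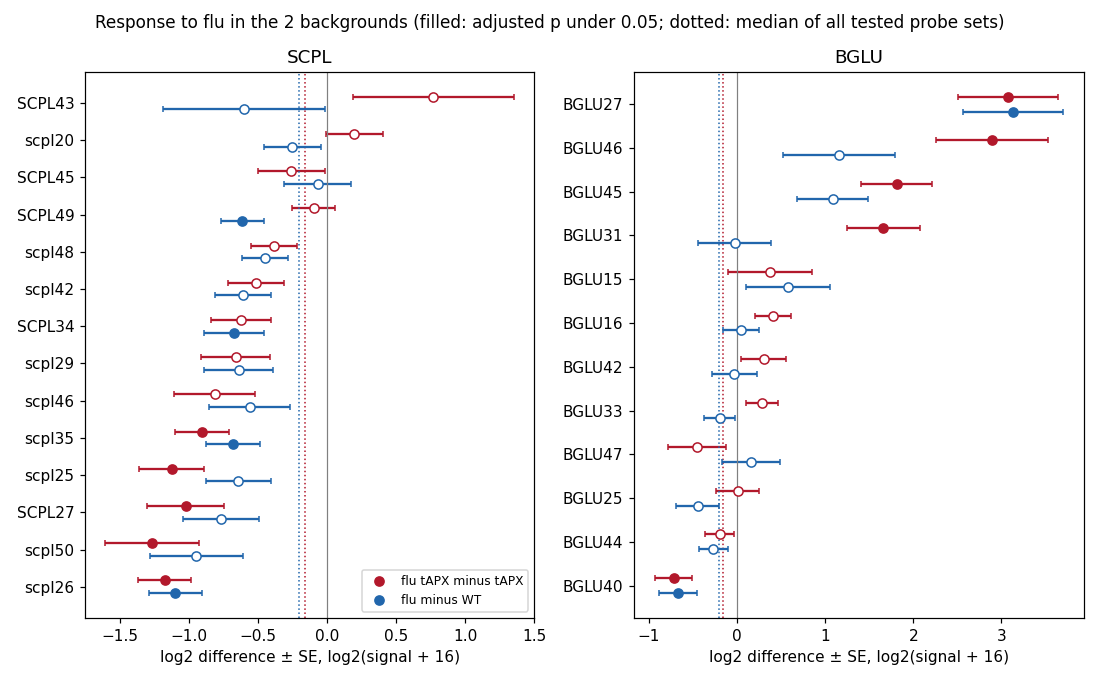
Log2 difference with its SE for each SCPL (left) and BGLU (right) member in flu tAPX minus tAPX (red) and flu minus WT (blue), on log2(signal + 16). Filled points passed limma at an adjusted p under 0.05, and dotted lines mark the median of all tested probe sets (-0.16 and -0.20); most SCPL points lie left of them, and BGLU27 lies farthest right.

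The responses to flu of members were not shown to differ with the transgene. In the interaction, limma called 0 of 14 SCPL and 0 of 12 BGLU members, and 0% of all tested probe sets. An unadjusted p under 0.05 was found for 1 SCPL member (SCPL49) and 1 BGLU member (BGLU31), as for 6.90% of all tested probe sets. With scaling on poly-A spike-ins, limma called 429 probe sets in the interaction, and still 0 of 14 SCPL and 0 of 12 BGLU members.

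The transgene itself was called for no member in either background. In flu tAPX against flu, limma called 0 of 26 members and 0.00669% of all tested probe sets (1, TAPX), and 2 members had an unadjusted p under 0.05 (SCPL49 and BGLU33, against 5.53% of all tested probe sets). The log2 differences ran over -0.42 to 0.58 for SCPL and -0.12 to 1.04 for BGLU. With scaling on poly-A spike-ins, limma called 580 probe sets in flu tAPX against flu, and still no member. In tAPX against WT limma again called 0 of 26 and 0.00669% of all (TAPX), and 1 member, SCPL43, had an unadjusted p under 0.05 (-1.41 ± 0.58, adjusted p = 0.980), against 3.87% of all tested probe sets. The ranges were -1.41 to 0.28 for SCPL and -0.78 to 0.62 for BGLU.

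**Figure D4:**
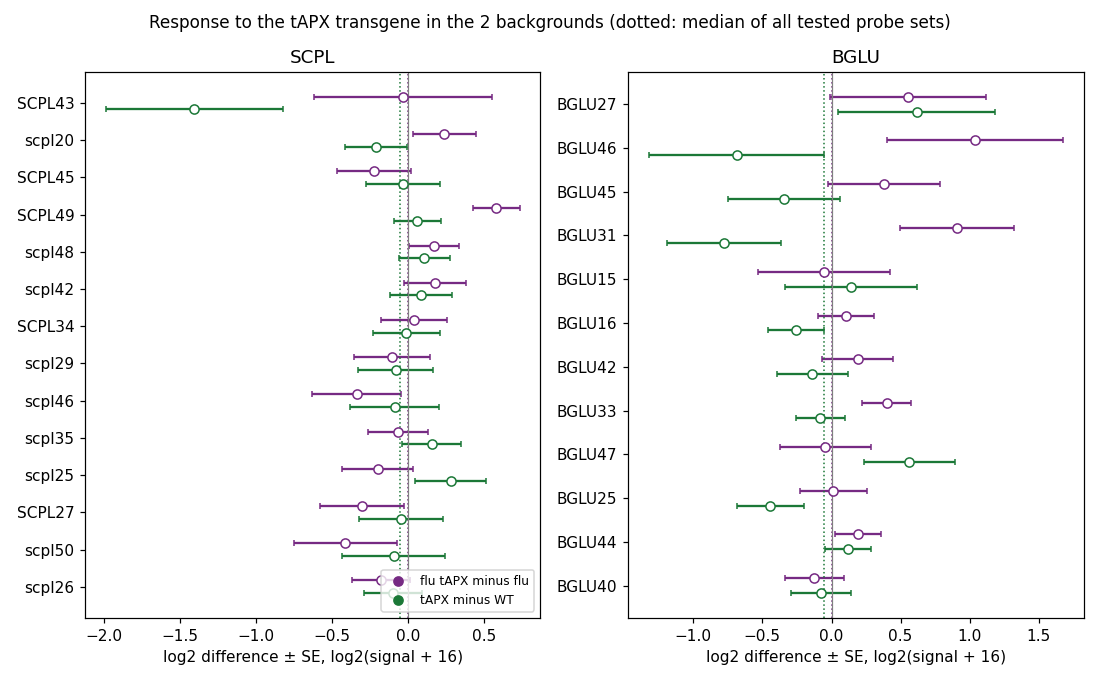
Log2 difference with its SE for each SCPL (left) and BGLU (right) member in flu tAPX minus flu (purple) and tAPX minus WT (green), on log2(signal + 16). No point is filled, since none passed limma at an adjusted p under 0.05; scpl26 stands at -0.18 and -0.10.

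Genes of pathways that hold glucose conjugates, and of ER bodies, were read from short lists. Not every gene in them makes or uses such a conjugate. In the sinapate and phenylpropanoid list, 6 of 23 genes were tested and 1 rose in both backgrounds, where 10.7% of all tested probe sets did. That gene was CCR2, a cinnamoyl-CoA reductase on the way to monolignols, with 2284 and 2118 in flu tAPX, 1588 and 1745 in flu, 38.1 and 6.73 in tAPX and 19.4 and 14.9 in WT and log2 differences of 5.98 ± 0.35 in flu tAPX against tAPX (adjusted p = 1.2e-06) and 5.67 ± 0.35 in flu against WT (adjusted p = 2.68e-06). Its tAPX and WT signals all lay under the 40th percentile, so it was kept through the lines in which it is high. The count of 1 is therefore a description and supports nothing. Its differences with pseudocounts of 64 and 1 were 4.74 and 6.98 in flu tAPX against tAPX and 4.41 and 6.53 in flu against WT. The other 5 did not pass. ALDH2C4, which makes sinapate and ferulate, had 0.24 ± 0.18 in flu tAPX against tAPX and -0.05 ± 0.18 in flu against WT, and UGT84A3, which makes glucose esters of hydroxycinnamates, had 0.05 ± 0.21 and 0.51 ± 0.21 there. The glucosyltransferases UGT72E1 and UGT72E2 had 0.17 ± 0.32 and -0.13 ± 0.43 in flu tAPX against tAPX. In flu against WT they had 0.50 ± 0.32 and 0.44 ± 0.43. Of these, UGT72E2 acts on monolignols, opposite to BGLU45 and BGLU46.

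In the flavonoid list 3 of 18 genes were tested. UGT78D1, which adds rhamnose to flavonols, read 305 and 536 in flu tAPX, 732 and 573 in flu, 1379.5 and 1428 in tAPX and 1144 and 1261 in WT and fell in both backgrounds (-1.75 ± 0.25, adjusted p = 0.000511 in flu tAPX against tAPX, and -0.88 ± 0.25, adjusted p = 0.0306 in flu against WT). The second call was lost without flu replicate 1, flu replicate 2, tAPX replicate 1, tAPX replicate 2, WT replicate 1 or WT replicate 2 or with scaling on poly-A spike-ins or no variance trend (-1.05 to -0.70). UGT78D2, the matching glucosyltransferase, fell in flu tAPX against tAPX (-0.64 ± 0.22, adjusted p = 0.0430) and had -0.30 ± 0.22, adjusted p = 0.344 in flu against WT. Its call was lost without flu tAPX replicate 1, flu tAPX replicate 2, flu replicate 1, flu replicate 2, tAPX replicate 1 or tAPX replicate 2 or with no filter or no variance trend (-0.69 to -0.60). AT1G06000 did not pass.

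In the glucosinolate list 3 of 30 were tested. UGT74B1, which glucosylates glucosinolate precursors, rose in flu against WT (0.51 ± 0.16, adjusted p = 0.0395) and had 0.37 ± 0.16, adjusted p = 0.10 in flu tAPX against tAPX. This call was lost without flu replicate 1, flu replicate 2, tAPX replicate 1, tAPX replicate 2, WT replicate 1 or WT replicate 2 or with scaling on poly-A spike-ins, no variance trend or the 2 compared lines alone (0.37 to 0.66). AT2G31790 fell in flu tAPX against tAPX (-0.61 ± 0.16, adjusted p = 0.0146), a call lost without tAPX replicate 1 or tAPX replicate 2 (-0.65 and -0.57), and BCAT4 did not pass in either background.

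ER bodies are stores of beta-glucosidase that Brassicaceae draw from the endoplasmic reticulum, and PYK10 (also BGLU23) is their main enzyme in roots. PYK10 was dim, at 95.6 and 109 in flu tAPX, 85.6 and 72.4 in flu, 18.5 and 54.1 in tAPX and 113 and 12.6 in WT, and did not pass (1.27 ± 0.69, adjusted p = 0.189 in flu tAPX against tAPX). Of 3 tested genes among 9 of the ER body list, 2 rose in both backgrounds, against 10.7% of all tested probe sets, and 3 genes are too few to judge a share by. NAI1, a transcription factor needed for ER bodies, read 432 and 271 in flu tAPX, 264 and 211 in flu, 61.1 and 15.9 in tAPX and 8.39 and 45.4 in WT and rose by 2.85 ± 0.55 in flu tAPX against tAPX and 2.70 ± 0.55 in flu against WT on the log2 scale (adjusted p = 0.00288 and 0.00587). Its tAPX and WT signals were under the 40th percentile too, so NAI1 was also kept through the lines in which it is high. Its differences with pseudocounts of 64 and 1 were 2.03 and 3.40 in flu tAPX against tAPX and 1.75 and 3.50 in flu against WT. JAL23, a jacalin-type lectin found with PYK10, read 302 and 318 in flu tAPX, 280.0 and 274 in flu, 112 and 99.0 in tAPX and 101 and 128 in WT and rose by 1.43 ± 0.24 and 1.17 ± 0.24 in the same comparisons (adjusted p = 0.00139 and 0.00639). NAI2, an ER body protein, did not pass (0.80 ± 0.41 and 0.18 ± 0.41).

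The abscisic acid list had 2 of 11 genes tested, and both rose in both backgrounds, against 10.7% of all tested probe sets. A list of 2 genes is too short to judge a share by. UGT71C5, which makes the abscisic acid glucose ester that BGLU33 cuts, read 781 and 529.9 in flu tAPX, 688 and 647 in flu, 295 and 306 in tAPX and 235 and 274 in WT and rose by 1.06 ± 0.22 in flu tAPX against tAPX and 1.34 ± 0.22 in flu against WT (adjusted p = 0.00449 and 0.00176), the first lost with scaling on poly-A spike-ins (0.45). UGT71B6, an enzyme of the same reaction, read 194 and 197 in flu tAPX, 180.4 and 171 in flu, 15.9 and 42.2 in tAPX and 32.7 and 60.7 in WT and rose by 2.3 ± 0.42 and 1.65 ± 0.42 (adjusted p = 0.00238 and 0.0193), the second lost without flu replicate 1, flu replicate 2 or WT replicate 1 (1.32 to 1.69). The tAPX and WT signals of UGT71B6 were under the filter's percentile, so it was kept through the lines in which it is high. With pseudocounts of 64 and 1 the difference of UGT71B6 in flu tAPX against tAPX was 1.49 and 2.86. BGLU33 passed in neither background. No gene of the lists of serine carboxypeptidases under other names and of dark-induced and senescence genes could be tested.

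The filter left out 23 named members. They were scpl16, scpl18, scpl21, scpl22, scpl23, scpl28, scpl30, scpl31, SCPL32, scpl33, scpl38, scpl40, scpl41, scpl44 and scpl47 for SCPL (15) and BGLU19, BGLU24, BGLU28, BGLU29, BGLU32, BGLU36, BGLU41 and BGLU43 for BGLU (8). Of these, 20 lay above the 40th percentile on no array and 3 on 1 array, and their signals ran over 2.46 to 116. Just outside the filter, scpl47 read 85.3 and 69.0 in flu tAPX, 41.7 and 36.0 in flu, 60.4 and 9.35 in tAPX and 71.6 and 77.6 in WT. BGLU36 read 12.7 and 116 in flu tAPX, 2.46 and 59.3 in flu, 22.4 and 20.4 in tAPX and 86.2 and 11.6 in WT, and scpl22 read 2.98 and 113 in flu tAPX, 4.39 and 2.97 in flu, 2.52 and 6.56 in tAPX and 3.93 and 11.3 in WT. Just inside it were SCPL43, BGLU15 and BGLU46, each above the percentile on 2 arrays. Such values do not show that a gene is silent in these leaves.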

How the data were processed

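RNA from rosette leaves of 4 lines (2 arrays each, groups and replicate numbers from the sample titles) was read on ATH1 arrays. The submitters' processing notes name MAS5, and the deposited values are its signal intensities, not logged, with the MAS5 version not given in the sources used here. Array medians lay between 153 and 166, and values scaled to a common level cannot show a shift shared by most transcripts. Values became log2(signal + 16). Control probe sets were removed, and 14947 of 22810 probe sets above the 40th percentile of their own array on at least 2 arrays were kept. All 8 arrays entered 1 limma 3.58.1 fit (R 4.3.3) of 4 line means with a trended variance prior (4 residual degrees of freedom, to which the prior added 5.94 at the median). Two-sided p-values were adjusted by Benjamini-Hochberg over all kept probe sets, with calls at an adjusted p under 0.05. The fit was tested on simulated data. Symbols came from the platform annotation, updated through NCBI gene identifiers to TAIR10.1. Of the 22810 probe sets, 8794 had no gene there, controls among them, and 503 had several. Genes of the lists could be read only where a probe set was mapped to them alone. The 3 probe sets of several genes with an SCPL or BGLU symbol were left out. Members, lists and tests were chosen with earlier results of these data known. Genes with a value on every array in the text are those called in any comparison, the brightest and the most changed of each family and, from the lists, called genes; the remaining members are given too, and uncalled list genes were named after their values were seen. Array number limits precision. Alternatives were the pseudocount (1 or 64), no filter or the 60th percentile, quantile, median and poly-A spike-in scaling, no variance trend, a replicate block, each array left out, and fits of the compared lines alone.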

Additional observations from a re-analysis of the deposited data

How the results depend on the processing

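Of 3142 recomputed single-member values, 2835 kept their direction and side of the threshold, 75 lost a call, 38 gained one, 194 changed sign without being called in either setting, and 0 were called with the opposite sign. Scaling on poly-A spike-ins changed the most family results. It gave a median over all tested probe sets of -0.75 in flu tAPX against tAPX (-0.16 as deposited) and -0.17 in flu against WT (-0.20 as deposited). With it, 15.6% of called probe sets were higher in flu tAPX against tAPX, against 44.7% as deposited, 69.0% against 47.6% in flu against WT, and 22.3% against 38.6% in the pooled response. Under it, SCPL members lower numbered 1 in flu against WT and 12 in flu tAPX against tAPX, and SCPL medians were -1.25 in flu tAPX against tAPX, -0.66 in flu tAPX against flu, -0.70 in the interaction, -0.93 in the pooled response and -0.29 for the pooled transgene effect. BGLU members lower numbered 0, 3 and 2 in flu against WT, flu tAPX against tAPX and the pooled response, and BGLU medians turned negative in flu tAPX against tAPX (-0.25), flu tAPX against flu (-0.38), the interaction (-0.30), the pooled response (-0.10) and the pooled transgene effect (-0.17). Relative to the median of all tested probe sets, the pooled SCPL median was -0.46 with spike-in scaling and -0.45 as deposited, and the BGLU one 0.37 and 0.38. At the 60th percentile, where fewer members were tested, the BGLU median in flu against WT was -0.20 and 1 BGLU member was higher in flu tAPX against tAPX and 1 in the pooled response. BGLU members lower in flu against WT numbered 0 with no filter, with median centring and with no variance trend, which gave 2 higher. In flu tAPX against tAPX they numbered 0 with no variance trend or with the compared lines alone. The causes of these changes were not tested.

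Leaving out 1 array at a time gave 1 to 8 SCPL members lower in flu against WT, 2 to 7 in flu tAPX against tAPX and 7 to 11 in the pooled response; SCPL medians of -0.78 to -0.39 in flu tAPX against tAPX, -0.23 to 0.11 in flu tAPX against flu, -0.18 to 0.12 in the interaction and -0.76 to -0.50 in the pooled response; 1 to 5 BGLU members higher in flu tAPX against tAPX; and 0 to 1 lower in either single background. A line left with 1 array was assumed to vary like the others. Same-numbered arrays of different lines deviated together with r of -0.08 to 0.35, the highest between flu tAPX and flu. These values do not settle whether the number is a pairing, and the main fit did not use it as one. With a replicate block, SCPL members lower numbered 6 in flu against WT and 8 in flu tAPX against tAPX. Pooled effects were added to the alternatives after the data were seen.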

Other observations

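Probe sets shared by several genes were dim. The 1 that reads scpl36 and scpl37 had signals of 4.63 to 20.9 over the 8 arrays, the 1 that reads scpl39 and AT3G56540 had 3.58 to 13.6, and the 1 that reads BGLU21 and BGLU22, beta-glucosidases best known from roots, had 2.40 to 47.2. ATA27 (also BGLU20), a beta-glucosidase known from anthers, did not pass the filter, and its signals were 54.4 and 23.4 in flu tAPX, 6.59 and 4.98 in flu, 6.43 and 5.90 in tAPX and 36.1 and 35.9 in WT. Among named members that did not pass, scpl38 had 62.0 and 35.4 in flu tAPX, 6.68 and 10.6 in flu, 5.22 and 5.51 in tAPX and 5.64 and 8.48 in WT, higher in both flu tAPX arrays than in any other, and scpl22 had a single high value, in flu tAPX replicate 2. These genes were chosen after their values were seen and were not tested.

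The spike-in controls were brighter in flu tAPX than in the other lines: the mean log2 signal of 12 poly-A control probe sets deviated from its mean over the arrays by 0.66 and 0.23 in flu tAPX, -0.12 and -0.18 in flu, -0.11 and -0.26 in tAPX, and -0.26 and 0.04 in WT.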
